A study of Drosophila melanogaster with 2 samples.

Results

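Peaks on the X chromosome are described here as they stood in a ChIP-seq experiment on CG15073 in Drosophila melanogaster embryos. ChIP-seq pulls down a protein with the DNA it sits on and sequences that DNA, and enriched places are called peaks. An irreproducible discovery rate (IDR) list is cut by how alike peaks rank in replicates, though single members need not rank alike. The authors' IDR list on the dm6 build held 1445 peaks, each found with the same signal in their list of both replicates together. All 274 of them on the X were taken, and the 1171 on the autosomal arms (2L, 2R, 3L, 3R and chromosome 4) together served for comparison. The members were taken by chromosome name, with no threshold on a measured value.

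The embryos came from 1 transgenic line that stably expresses CG15073 with enhanced GFP at its C-terminus, and the precipitation used an anti-GFP antibody. They were aged 0 to 24 h, males and females were pooled, and sonication gave chromatin fragments of 200 to 800 bp. The labels give 1 group of 2 biological replicates, numbered 3 and 4, and no second condition. Tissue is the whole organism, so cells of all types are mixed. A pool of both sexes holds fewer X copies than copies of each autosome, and the sources used here do not say how the signal was scaled for this. Read depth is not given in the sources used here, so the intervals below cover the counting of peaks only.

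CG15073 belongs to the ZAD (zinc-finger-associated domain) family, which has expanded in insects and whose members bind DNA through arrays of C2H2 zinc fingers. The fly X is set apart by dosage compensation, in which the MSL complex with its roX RNAs raises transcription from the single X of males, entering at GA-rich recognition elements and spreading over transcribed genes. The X is also richer than the autosomes in CA repeats.

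Several strong X peaks are shown first by their sequence, and most of them were chosen because they hold a short word. Each line gives 101 bp of the plus strand, written from 5′ to 3′ and centred on the summit, from the Release 6 assembly of RefSeq, whose X coordinates are those of dm6. Capitals mark the word ACAGTGG or its reverse complement CCACTGT and the CTCF core AGRKGGCGC or its reverse complement. The first 5 windows were chosen for the word. CG43658 is a strong intron peak without either of these, and wgn shows 2 CTCF cores.
ewg intron chrX:278516-278616: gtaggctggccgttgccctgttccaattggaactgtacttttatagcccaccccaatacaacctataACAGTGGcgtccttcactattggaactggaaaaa
Smr intron chrX:12716277-12716377: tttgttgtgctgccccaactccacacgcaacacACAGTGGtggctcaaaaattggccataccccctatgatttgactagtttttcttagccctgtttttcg
Top1 start site chrX:15323354-15323454: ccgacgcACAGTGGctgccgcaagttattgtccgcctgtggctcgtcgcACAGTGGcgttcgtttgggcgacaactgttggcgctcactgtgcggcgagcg
Raf intron chrX:2302386-2302486: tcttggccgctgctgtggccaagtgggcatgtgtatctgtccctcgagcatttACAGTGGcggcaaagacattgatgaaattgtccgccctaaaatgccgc
CHES-1-like intron chrX:7706851-7706951: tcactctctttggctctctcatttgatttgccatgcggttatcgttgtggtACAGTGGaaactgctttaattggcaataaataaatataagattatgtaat
CG43658 intron chrX:17507683-17507783: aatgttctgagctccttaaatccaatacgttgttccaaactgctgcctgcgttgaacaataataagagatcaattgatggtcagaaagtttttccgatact
wgn upstream chrX:18635452-18635552: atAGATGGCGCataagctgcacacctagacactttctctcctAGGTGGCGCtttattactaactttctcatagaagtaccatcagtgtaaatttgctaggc

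The word ACAGTGG was noticed in these windows and then counted everywhere, so its share on the X is a description and not a test. Since it was noticed on the X, its X share and its autosomal share are not on an equal footing. Its centre lay within 200 bp of 30.7% of X summits (84 of 274; exact 95% binomial interval 25.3 to 36.5) and of 20.2% of autosomal summits (236 of 1171; 17.9 to 22.6). Windows of that same length, 405 bp, laid end to end held the word at 5.05% on the X and 4.58% on the autosomes. The large autosomal arms lay between 15.1% on 3L and 22.3% on 3R, below the X in each case.

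Both replicates showed that order when taken alone, though largely at the same sites. Of the 262 X summits in each replicate list, 236 (replicate 3) and 217 (replicate 4) lay within 200 bp of an IDR summit. The replicates are therefore no independent reading of a word noticed in these data. Among the 1445 strongest peaks of replicate 3, the word stood within 200 bp of 29.0% of X summits and 21.1% of autosomal summits. In replicate 4 the shares were 29.4% on the X and 18.5% on the autosomes. The pooled peaks ranked 1446 to 2890, below the IDR list, had it at 18.6% on the X and 13.8% on the autosomes, again with the X higher.

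A stronger signal went with a higher share of the word. In windows of 201 bp around the summit, it was found in 44.4% of X peaks with a deposited signal of 250 or more (12 of 27), 28.97% of those from 100 to 250 (31 of 107) and 10.7% of those under 100 (15 of 140). On the autosomes the 3 shares were 36.1%, 14.1% and 10.1%. The printed ewg, Smr, Top1 and Raf peaks, chosen for the word, are among the 12, and that of CHES-1-like among the 31. The X share at 250 or more, and its excess over the autosomes there, thus rest in part on windows chosen for the word. Flanks centred 1000 bp to each side held the word in 2.37% of X windows and 3.37% of autosomal windows. The shares rose with signal on both, and the flanks stayed near the level of all windows, 2.56% on the X and 2.31% on the autosomes.

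The distance of the word from the summit was counted next. Per 100 summits, the X had 8.39 words within 50 bp, 17.2 at 50 to 100 bp, 9.12 at 100 to 150 bp and 8.03 at 150 to 200 bp. The autosomes had 8.37 within 50 bp, 7.43 at 50 to 100 bp, 5.47 at 100 to 150 bp and 3.25 at 150 to 200 bp. Beyond 200 bp no bin passed 2.92 on either. In the IDR list the X and the autosomes were thus alike within 50 bp and differed from 50 to 200 bp. The replicates did not repeat the likeness within 50 bp, where the X had 10.3 and the autosomes 8.11 in replicate 3, and the X had 11.1 and the autosomes 8.28 in replicate 4. At 50 to 100 bp the X had 15.3 and the autosomes 7.95 in replicate 3, and the X had 12.2 and the autosomes 6.76 in replicate 4. Of the words within 200 bp, 19.7% on the X (23 of 117) and 34.1% on the autosomes (98 of 287) lay within 50 bp of the summit. The autosomal arms were unlike each other in this: the share was 26.7% on 2L, 29.3% on 3L, 33.8% on 2R and 43.2% on 3R. On 2L the bin from 50 to 100 bp also held the most words of any, 9.36 per 100 summits against 6.69 within 50 bp. The median distance was 86 bp on the X and 75 bp on the autosomes, from 60.5 bp on 3R to 89 bp on 3L.

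Neighbouring summits can see the same word, but this touched few. The 117 words near X summits stood at 112 distinct places. Among summits with no other IDR summit within 1000 bp, the word was near 27.5% on the X (63 of 229) and 18.4% on the autosomes (191 of 1038). In that set the X again had most words at 50 to 100 bp, 15.3 per 100 summits, against 7.86 within 50 bp.

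**Figure D1:**
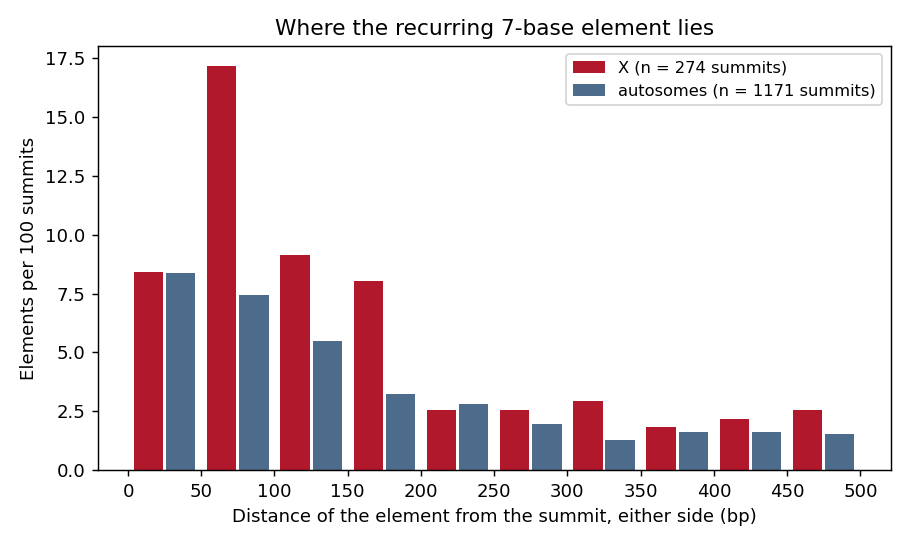
Number of ACAGTGG words (either strand) per 100 IDR summits, by distance of the word's centre from the summit in bins of 50 bp, for the X (left bars) and the autosomes (right bars). X bars stand highest at 50 to 100 bp, at 17.2, while autosomal bars are highest within 50 bp, at 8.37.

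Another 10 motifs were searched on both strands in the 201-bp windows, and matches may overlap one another. CACACACA was in 6.20% of X summit windows (17) and 2.65% of autosomal summit windows, while all windows held it at 5.77% on the X and 3.74% on the autosomes. X flanks had more, 9.49%. The repeat was thus no more frequent at X summits than beside them. GAGAGAGA, the repeat core of the MSL recognition element, was in 2.55% of X summit windows (7; exact interval 1.03 to 5.19), in 3.10% of X flanks and in 1.62% of autosomal summit windows. Its share of all X windows was 1.54%.

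CTCF is an insulator protein, and its core AGRKGGCGC was in 5 X summit windows (1.82%; exact interval 0.595 to 4.21) and 2.99% of autosomal summit windows, against 0.537% of all X windows and 0.389% of all autosomal windows. Besides wgn, the X carriers were peaks nearest to the start sites of eIF4H1 (the para peak), CG43658, CG2258 and lncRNA:CR43838. The CG43658 carrier had a signal under 100 and is not the strong peak printed above. The homeodomain core TAATTA was in 14.6% of X and 17.0% of autosomal summit windows (all X windows 11.7%). GAGAG, the site of GAGA factor, was in 23.0% and CGATA, the site of BEAF-32, in 21.9% of X summit windows, with 21.5% and 22.2% of all X windows.

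The remaining motifs were rare. TGCATATTT, the Su(Hw) core, was in 1.82% of X summit windows and 0.825% of all X windows. CAGGTAG, the site of the early activator Zelda, was in 1.09% of X summit windows and 1.00% of all X windows. TATCGATA, the DREF element, was in 0.730% and 0.706%, and GGTCACACT, the M1BP site, in 0.730% and 0.248%. Base composition differed as well. The median GC content of the windows was 36.8% at X summits, 34.8% at autosomal summits, 40.8% in X flanks and 42.3% over all X windows.

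The X held 18.96% of IDR peaks (exact interval 17.0 to 21.1), 17.6% of the assembled length of the arms and 17.0% of their protein-coding start sites. This came to 11.6 peaks per Mb on the X and 10.6 on the autosomes, where 2L had 12.7, 2R 9.93, 3L 9.64, 3R 10.6 and chromosome 4 had 6.68. The X therefore stood between 2L and 3R. The dm3 list gave the X 228 of 1175 peaks, or 19.4%.

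The X share was higher at the head of the ranked lists than further down. In the pooled list of 23030 peaks the X share was 21.0% of ranks 1 to 100 (exact interval 13.5 to 30.3). It was 19.6% of ranks 101 to 722 (16.6 to 23.0) and 18.1% of ranks 723 to 1445 (15.4 to 21.1). These intervals overlapped. Of the 25 strongest IDR peaks, 4 were on the X (16%). The X share was 14.9% of ranks 1446 to 2890 (13.1 to 16.8) and 13.7% over the whole list (3148 peaks). In each replicate list the share also fell from the head to ranks 1446 to 2890, to 14.8% in replicate 3 and 11.6% in replicate 4. In each list it was lowest in the middle ranks and higher again at the tail. The pooled share was 12.1% of ranks 5781 to 11560 and 13.7% of ranks 11561 to 23030. In replicate 3 it was 12.98% of ranks 2891 to 5780 and 15.4% of ranks 11561 to 30000. In replicate 4 the same ranks had 10.8% and 13.98%. The first 100 peaks were on the X for 23.0% in replicate 3 and 21.0% in replicate 4, and the whole lists for 14.9% and 13.3%. These whole lists mix peaks with background, and their X share lay below the X share of length. Whether the lower copy number of the X in the pool of both sexes bears on this share was not tested.

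Deposited signals had a median of 98.8 on the X and 96.1 on the autosomes, with lowest values of 66.8 on the X and 66.5 on the autosomes. This signal is the authors' own measure of peak strength, and its scale is not stated. A signal above 500 was reached by 12 X peaks (4.38%) and 48 autosomal peaks (4.10%). The medians were close, and their order turned in the stronger 722 peaks.

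A strong X peak lay at the start site of CG6023 (chrX:18321534, signal 1613), ranked 19 in replicate 3 and 11 in replicate 4. An intron peak of CG43658 followed (chrX:17507733, signal 1575), ranked 15 and 17 in those lists.

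Signals near 1000 marked the next 3. In coding sequence of CG33181 the summit stood at chrX:8491973 (signal 1142; ranks 26 and 20 in replicates 3 and 4). Between genes, 594 bp upstream of wgn, a receptor gene of the tumour necrosis factor pathway, it stood at chrX:18635502 (signal 1027; ranks 31 and 24). At the start of car, which encodes a vesicle-sorting protein, it stood at chrX:19566179 (signal 1003; rank 27 in both). All 3 kept nearly equal ranks in both replicates.

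Away from start sites, the strongest were an intron peak of ewg, a transcription factor gene related to NRF-1 (chrX:278566, signal 887; ranks 24 and 42), and one of Smr, a gene for a nuclear co-repressor (chrX:12716327, signal 818; ranks 33 and 56). In the 3′ UTR of para, the voltage-gated sodium channel gene, a peak had its summit at chrX:16458780 (signal 664; ranks 47 and 46), 9628 bp from the nearest start site. CG43658 had a further intron peak (chrX:17509004, signal 484; ranks 60 and 75). Tlk, which encodes the Tousled-like kinase, had one at chrX:3742235 (signal 380; rank 85 in both). These 5 led the 113 X summits (41.2%) that lay over 1000 bp from any start site, against 410 on the autosomes (35.0%).

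Genes with start-site peaks among the 20 strongest included Ugalt, for a UDP-galactose transporter (chrX:2703881, signal 635; ranks 57 and 35), and Top1, for DNA topoisomerase I (chrX:15323404, signal 451; ranks 72 and 60). S6KL, a kinase gene, had summits at chrX:18789748 (signal 609) and chrX:18789993 (signal 595), 245 bp apart in 1 called interval. The first had no partner in replicate 3 and ranked 70 in replicate 4, and the second ranked 43 and 113. Smr (chrX:12742821, signal 474) and ph-p (chrX:2137332, signal 405) came next. ph-p encodes a Polycomb group protein and has a close tandem copy, ph-d, so reads of the pair may not be told apart. The remaining members of the 20 were CG32772 (379), another peak at CG6023 (361) and lncRNA:CR44619 (344).

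Recurrence was read as a summit within 200 bp among the 1445 strongest peaks of a replicate. The IDR list was made from these same replicates, so recurrence in them is no independent reading. Of the X summits, 85.0% (233) recurred in replicate 3, 79.9% (219) in replicate 4 and 68.2% in both (187; exact interval 62.4 to 73.7). Autosomal summits recurred in replicate 3 for 82.7%, in replicate 4 for 74.9% and in both for 61.7% (722; 58.8 to 64.5). Only 9 X summits recurred in neither. The X share in both was above that of each large autosomal arm, which ranged from 60.2% on 2L to 64.2% on 3L.

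Over the 264 X summits with a partner in both whole replicate lists, Spearman's rho of the signals was 0.618 and Pearson's r of log2 signals 0.819, while the 1120 autosomal summits gave 0.599 and 0.809. Summits of 1 list are not independent replicates, so no p-value is given. Ranks of the nearest partners differed most for an intron peak of the nuclear receptor gene Hr4 (chrX:1951918; rank 405 in replicate 3 and 15044 in replicate 4), one of dnc, the cAMP phosphodiesterase gene (chrX:3297778; 20951 and 775), and one at CG2865 (chrX:2293706; 475 and 12397). The dnc summit also had 1 of the 1445 strongest replicate 3 summits within 200 bp, though that was not its nearest. At the low end of the list, the kirre peak (chrX:2787492, signal 66.9) ranked 1658 and 2330.

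Introns and start sites together held most X summits, in nearly equal shares. Introns took 46.7% on the X (128; exact interval 40.7 to 52.8) and 28.2% on the autosomes (330; 25.6 to 30.9), where the large arms ranged from 26.8% to 31.1%. Introns make up 43.3% of X bases and 38.6% of autosomal bases. Start sites, meaning summits within 500 bp of an annotated transcript start, took 44.2% on the X (121; 38.2 to 50.3) and 54.3% on the autosomes (636; 51.4 to 57.2). The stretches around start sites cover 12.6% of X bases and 13.8% of autosomal bases, so start sites were well represented on both.

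Intergenic sequence held few X summits, 5.47% (15; 3.10 to 8.87), against 13.5% on the autosomes (158), with the large arms between 8.37% and 18.1%. Intergenic bases are 22.6% of the X and 28.2% of the autosomes. Coding sequence held 2 X summits (0.730%) and 1.62% of autosomal summits, and the UTRs outside start sites held 6 on the X. Among summits outside start sites, 83.7% lay in introns on the X (128 of 153; 76.8 to 89.1) and 61.7% on the autosomes (330 of 535; 57.4 to 65.8).

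Each replicate gave a similar picture, though largely at the same sites as the IDR list. Introns held 44.7% of the strongest X summits in replicate 3 and 46.2% in replicate 4, and 28.7% and 30.8% of the autosomal ones. Start sites held 45.8% and 43.1% on the X, and 53.7% and 48.1% on the autosomes. In the pooled peaks ranked 1446 to 2890, start sites held 40.0% on the X and 41.5% on the autosomes, nearly the same, and introns 48.4% and 37.6%.

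**Figure D2:**
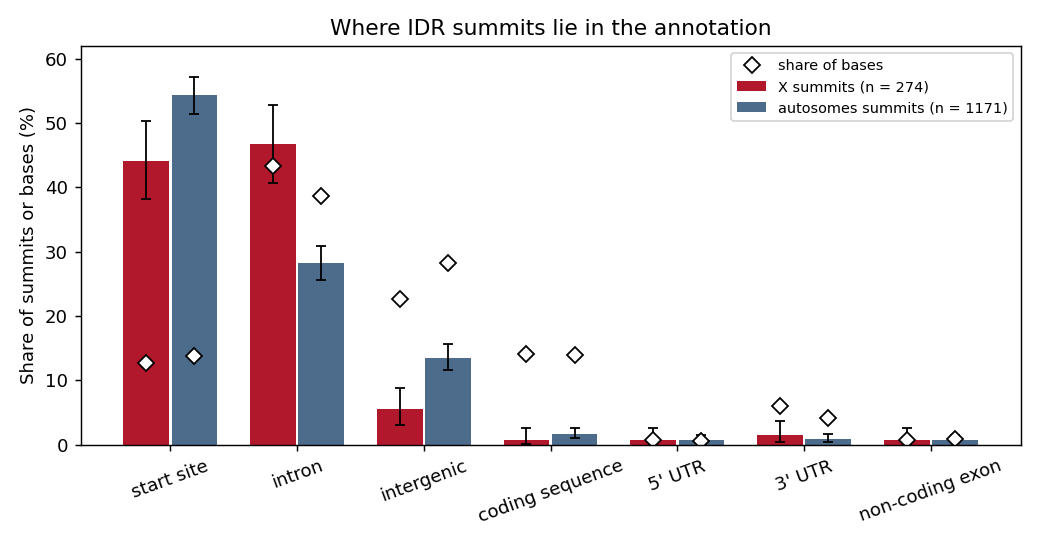
Share of IDR summits in each annotation class in percent, for the X (left bars) and the autosomes (right bars), with exact 95% binomial intervals, and the share of bases in that class (diamonds). Introns reach 46.7% on the X and 28.2% on the autosomes, and start sites 44.2% on the X and 54.3% on the autosomes.

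X intron peaks lay in longer introns than autosomal ones. Of 128, 86 (67.2%; 58.3 to 75.2) were in the first intron of a transcript, against 73.9% of 330 on the autosomes. Positions set every 2000 bp through introns were in a first intron for 48.1% on the X and 42.2% on the autosomes. The host intron had a median length of 11636 bp on the X and 8236 bp on the autosomes, and that of the evenly set positions 14399 bp and 12835 bp. From the nearest start site, intron summits were a median of 1924 bp away on the X and 2188 bp on the autosomes.

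Start-site summits on the X stood farther from the start itself. For protein-coding genes the median position was −194.5 bp on the X (n = 112 summits; negative is upstream) and −132 bp on the autosomes (n = 597), where the large arms ran from −152 to −122 bp. Within 200 bp of the start lay 41.1% on the X (46; exact interval 31.9 to 50.8) and 65.0% on the autosomes (388; 61.0 to 68.8). No large autosomal arm came below 59.7%. Most summits were upstream on both, 82.1% on the X and 85.9% on the autosomes.

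The shift was present in the strongest peaks of both replicates, though largely at the same sites as in the IDR list. In replicate 3 the median was −181 bp on the X and −131 bp on the autosomes, with 45.5% and 62.8% within 200 bp. In replicate 4 it was −197.5 bp on the X and −128 bp on the autosomes, with 39.6% and 64.1% within 200 bp. Below the IDR list it was not seen: pooled peaks ranked 1446 to 2890 had medians of −105 bp on the X and −117 bp on the autosomes, with 60.5% and 64.9% within 200 bp. The median called interval was 410 bp wide on both.

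**Figure D3:**
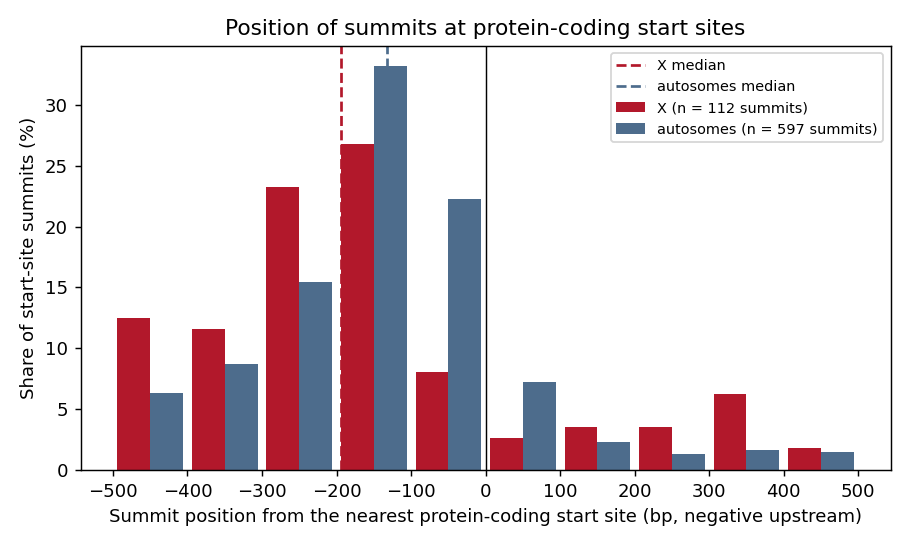
Position of IDR summits relative to the nearest protein-coding start site in bins of 100 bp, as percent of the start-site summits of the X (left bars) and of the autosomes (right bars), with dashed lines at the medians. The medians are −194.5 bp on the X and −132 bp on the autosomes.

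Crowding was measured from summit to summit. The median distance to the nearest summit was 13021 bp on the X and 14682 bp on the autosomes, from 8474 bp on 2L to 18845 bp on 3L. By this measure 2L was the most crowded and the X came next.

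Shares were then taken at set distances. A neighbour within 500 bp was found for 8.76% of X summits and 6.83% of autosomal summits, with 2L at 9.36%. A neighbour within 1 kb was found for 16.4% of X summits (45; exact interval 12.2 to 21.4) and 11.4% of autosomal summits (133; 9.60 to 13.3), with no large autosomal arm above 13.4%. Within 2 kb it was 29.9% on the X (82; 24.6 to 35.7) and 19.9% on the autosomes (17.6 to 22.3), with 2L at 24.1%. Within 5 kb the shares were 40.5% on the X (111; 34.6 to 46.6) and 32.1% on the autosomes (29.4 to 34.9), but 2L reached 41.1%. Of the distances taken, the X and the autosomes lay furthest apart at 2 kb. By 20 kb the X had 55.8% and the autosomes 56.9%.

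The smallest gap between neighbouring summits was 199 bp on the X and 199 bp on the autosomes. Gaps of up to 210 bp made up 8 of 273 on the X and 28 of 1166 on the autosomes. Called intervals overlapped a neighbour for 24 X peaks (8.76%) and 80 autosomal peaks (6.83%). Such pairs count as separate summits here, and merging those within 200 bp left 39.5% of X summits with a neighbour within 5 kb.

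**Figure D4:**
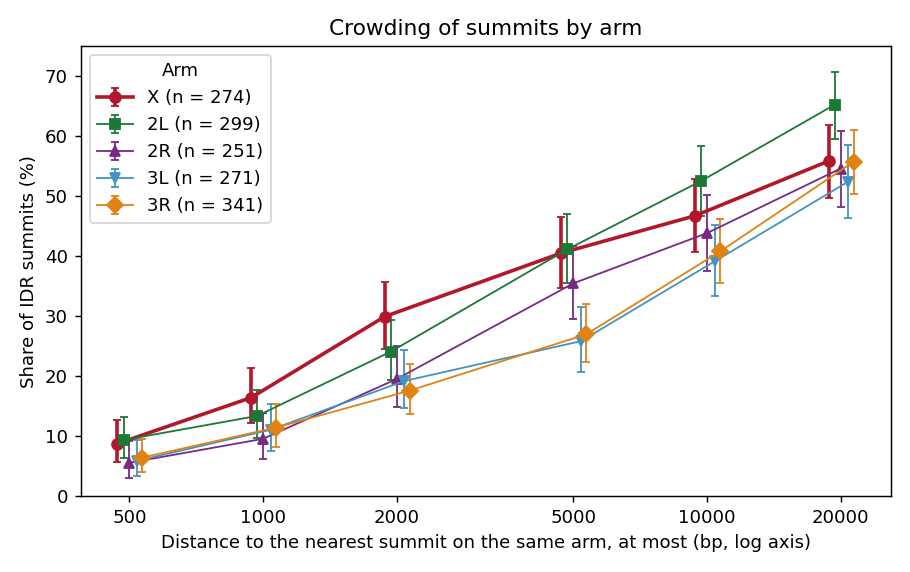
Percent of IDR summits whose nearest summit on the same arm lies within a given distance (bp, log axis), for the X and the 4 large autosomal arms, with exact 95% binomial intervals and points set slightly apart. The X line is the highest at 1000 and 2000 bp (29.9% at 2000 bp) and lies under 2L from 5000 bp on.

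Chains of summits were then followed, where each stands within 5 kb of the next. The X fell into 163 single summits, 31 pairs and 13 runs of 3 or more, and the autosomes into 795, 127 and 38. Runs of 3 or more held 17.9% of X summits (49; exact interval 13.5 to 22.9) and 10.4% of autosomal summits (122; 8.73 to 12.3). On 2L the share was 17.7%, on 2R 10.8%, on 3R 7.62% and on 3L 5.90%. The X had 5 runs of 4 or more summits, the autosomes 8, and the longest had 9 summits on the X and 4 on any autosomal arm.

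Run members on the X lay mostly in introns, 71.4% (35 of 49; 56.7 to 83.4), with 22.4% at start sites. These 49 came from 13 runs, and 7 of the 35 were in the Raf run. Members of a run are not independent, which the interval does not cover. Autosomal run members lay in introns for 38.5% and at start sites for 42.6%. Single X summits were in introns for 41.1%. Both replicates held 73.5% of X run members and 62.6% of single X summits, against 64.8% and 59.0% on the autosomes. In the strongest peaks of replicate 3 alone, runs held 16.0% of X and 10.9% of autosomal summits, and in those of replicate 4, 15.3% and 7.61%. These lists too held largely the same sites as the IDR list.

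The next ranks looked different. Pooled peaks ranked 1446 to 2890 had a neighbour within 5 kb, from the same ranks, for 14.9% on the X (10.4 to 20.4) and 23.1% on the autosomes (20.8 to 25.5), and runs held 2.79% and 6.18%. The order of X and autosomes was thus the reverse of that in the IDR list. The X had 215 summits at these ranks and the autosomes 1230.

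The longest run covered the start of Raf, whose kinase acts downstream of Ras, with 9 summits from chrX:2293706 to chrX:2304039. The first lay at the start site of CG2865, 1 in the 5′ UTR of Raf and 7 in its introns. Its strongest summit, chrX:2302436, had a signal of 280 and ranked 116 in replicate 3 and 140 in replicate 4. All 9 were near one of the strongest peaks of replicate 3 but 5 near one of replicate 4, and the summit at chrX:2302640 had no partner in replicate 4. The member at chrX:2304039, with a signal of 66.9, was among the weakest X peaks. The run therefore stood out by number and not by signal.

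Runs of 4 were found at ph-p, CG43658, CG1677 and CHES-1-like. At ph-p, signals ran from 97.4 to 405 over 3528 bp (chrX:2134414 to chrX:2137942), and all 4 recurred in both replicates. At CG43658, signals ran from 107 to 1575 over 2730 bp (chrX:17506478 to chrX:17509208), and 3 recurred in both. All 4 summits of CG43658 lay in introns.

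CG1677 held a run of 3 (chrX:7292032 to chrX:7294285) and a run of 4 (chrX:7299461 to chrX:7307191), all in introns with signals from 66.9 to 123. The host gene lies inside lncRNA:CR44357, and the last summit of the run of 4 stood 748 bp upstream of brk, a repressor gene of Dpp signalling. CHES-1-like, a forkhead transcription factor gene, also held a run of 3 (chrX:7697024 to chrX:7700407, signals to 134) and a run of 4 (chrX:7705627 to chrX:7709108, signals to 250). In the run of 4, all 4 recurred in both replicates.

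Further runs of 3 lay at boi, a Hedgehog co-receptor gene (signals to 294), at Tlk (to 380), at LPCAT, a lysophospholipid acyltransferase gene (to 237), and in an intron of Smr (to 125). The last were at the neighbouring lncRNA:CR44619 and lncRNA:Vinr (to 344) and at bves, a Popeye domain gene (to 193). Most of these runs mixed a strong summit with weaker ones.

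**Figure D5:**
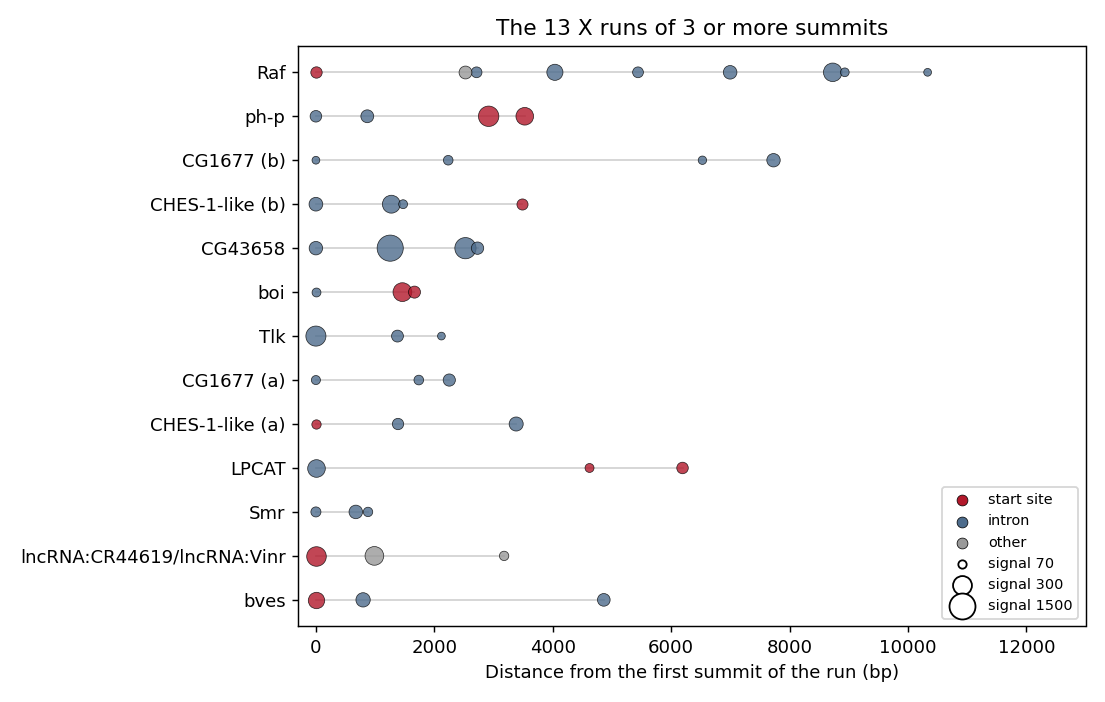
The 13 X runs of 3 or more IDR summits, each on its own line, as distance in bp from the run's first summit. Circle area grows with deposited signal and colour gives the annotation class. The Raf run has 9 summits over 10333 bp, and most circles are intron summits.

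Along the chromosome, X summits ran from chrX:278566 to chrX:21594062. In bins of 1 Mb, the bin from 2 to 3 Mb held most, 30 summits, followed by 24 from 7 to 8 Mb and 20 each from 3 to 4 and from 6 to 7 Mb. The median bin had 11. Of 24 bins, 2 at the end nearest the centromere were empty. The widest gap, 599593 bp, lay between chrX:19889443 and chrX:20489036.

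Genes were counted as well. A start-site peak was found for 122 of 2196 X protein-coding genes (5.56%) and 819 of 11749 autosomal ones (6.97%), or 941 of all 13945 (6.75%). A summit inside the gene's borders was found for 142 X genes (6.47%) and 537 autosomal genes (4.57%), or 679 in all (4.87%). By start sites the X was thus lower and by borders higher. X genes with a summit inside were long, with a median of 15095 bp against 2521 bp for all X protein-coding genes, and autosomal ones 13122 bp against 2102 bp.

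Among X genes with a summit inside, 8.45% held 3 or more (12 genes), against 5.59% on the autosomes (30 genes). Those 12 had a median length of 53411 bp, and the 30 autosomal ones 29338 bp. They were CG1677 (11 summits), Raf (8), CHES-1-like (7), CG43658, Smr and Tlk (5 each), bves, dnc and ph-p (4 each), and CG14434, Hr4 and Ptpmeg2 (3 each). Ptpmeg2, a tyrosine phosphatase gene, had all 3 at start sites, with signals from 76.7 to 165. The other genes held at most 2 start-site peaks. Of non-coding genes, lncRNA:CR44357 held 12 summits, 11 of them shared with CG1677, and lncRNA:CR44999 held 3.

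Gene lists were counted on the X beside the shares of all X protein-coding genes, 5.56% with a start-site peak and 6.47% with a summit inside. Of 32 genes for transcription and chromatin regulators, 4 had a start-site peak: Smr (signal 474), Top1 (451), ph-p (405) and CHES-1-like (92.4). A summit lay inside 10 of the 32, ewg, Hr4, Tlk, Mnt, sd and Lim1 being the others. Several of these genes are long, and the list was drawn up with the strongest peaks of these data known. It therefore gives no independent reading of such genes.

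Of 20 signalling genes, 2 had a start-site peak, S6KL (signal 609) and sgg, the fly GSK3 kinase gene (165). A summit lay inside 6 of them, among them N, the Notch receptor gene (137), and sog, a gene for a BMP-binding protein (87.6). Over all X protein-coding genes that share was 6.47%, but this list too was chosen with earlier results of these data known. Of 16 neural and ion channel genes, 3 had a start-site peak: elav, for a neuronal RNA-binding protein (181), dnc (152) and sdk, for an adhesion protein of synapses (117). That was 18.75%, beside 5.56% of all X protein-coding genes. A summit lay inside 3 of the 16, para, norpA and dnc. This list too was chosen with earlier results of these data known. Ranks in replicates 3 and 4 were 252 and 315 for elav, 356 and 348 for dnc, and 593 and 513 for sdk.

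Dosage compensation and sex determination genes on the X numbered 11. Sxl, the master gene of female development, had a peak within 500 bp of a start (chrX:7096758, signal 319; ranks 96 and 135), and it was the single one of the 11. roX1 and roX2, the RNA genes of the MSL complex, had none. Among 13 genes of eye colour and metabolism, car alone had a start-site peak, while summits lay inside Zw (194) and Pgd (163), which encode dehydrogenases of the pentose phosphate pathway. None of 14 ribosomal protein genes had a start-site peak. The start-site shares of 9.09% among the 11 and 7.69% among the 13 rest on 1 gene each. Beside the 5.56% of all X protein-coding genes, the start-site counts set none of these 3 small lists apart. By borders, a summit lay inside 3 of the 13 (car, Zw and Pgd, 23.1%), 1 of the 11 and none of the 14. Over all X protein-coding genes that share was 6.47%, and these lists too were chosen with earlier results of these data known.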

How the data were processed

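ChIP-seq peaks came from 1 group of 2 biological replicates. Per the deposited texts beside the lists, relaxed lists were made for each replicate and for both together, and the IDR list was derived from them. Not given in the sources used here are the aligner, peak caller, read depth and IDR threshold. No control was analysed here. The deposited signal per peak is the authors' peak strength with no stated scale, and ranks were taken from it within each list. The deposited −log10 q-value ran from 2.03 to 3.24 and stood at its maximum for 869 of 1445 peaks, so it was not used for ranking.

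Summits are 1-based. Gene models were those of Ensembl release 115 (BDGP6.54), with 5809 transposable elements left out, and sequence from the Release 6 assembly. The dm3 list was counted only. Classes were given in the order start site, coding sequence, UTR, non-coding exon, intron and intergenic. All shares have exact Clopper-Pearson 95% intervals, which cover counting error and treat peaks as independent. No p-value was computed, and differences between the X and the autosomes were not tested. Shares, runs and recurrence were tested on simulated data. Python 3.11.15, pandas 2.3.3 and scipy 1.17.1 were used.

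The chromosome, gene lists and motifs were chosen with earlier results of these data known. Genes were named by rule: the 20 strongest X peaks, runs of 5 or more, genes with 3 or more summits, up to 4 list members by start-site signal, the 5 strongest that lie over 1000 bp from a start and the 3 whose replicate ranks differ most. Other named genes were chosen after their values were seen. Of the symbols listed, os and RpL37a were not matched and 9 were not on the X. 1 of the 20 strongest X peaks is not reported here.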

Additional observations from a re-analysis of the deposited data

How the results depend on the processing

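No paired analysis was possible because the series holds 1 group, so no groups share replicate numbers. Of 59 alternatives to 9 results on the X, 56 kept the order of X and autosomes. Exceptions were the median signal in the stronger 722 peaks and without replicate 3, and the word ACAGTGG within 50 bp. The alternatives for introns, the word, the distance within start sites and the longest run were chosen after seeing the data. Leaving out the Raf run was tried for neighbours, runs, start sites, introns, the word and the distance within start sites, and moved none of these 6 beyond its interval.

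In the stronger 722 peaks, X values were 31.5% for a neighbour within 5 kb (23.7% on the autosomes), 10.5% for runs, 136 for the median signal (147 on the autosomes), 94.4% for recurrence, 3.14% for genes and 38.5% for the word. Neighbours were 29.9% at 2 kb and 46.7% at 10 kb, and runs 10.9% and 27.7%. A start-site limit of 200 bp gave 18.2% for start sites, 60.9% for introns and 2.28% for genes, and one of 1000 bp gave 58.8%, 35.0% and 7.29%. Recurrence was 46.7% within 50 bp and 88.7% among 2 times as many replicate peaks, and 79.9% to 85.0% in 1 replicate alone. The median signal was 39.6 in replicate 4 alone (40.2 on the autosomes) and 62.8 in replicate 3 alone (59.7), lists of another scale. The word was near 21.2% of X summits within 100 bp, 7.30% within 50 bp (8.11% on the autosomes), 39.1% of intron summits (25.5%) and 24.0% of start-site summits (17.3%). The causes were not tested.

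The depth behind each peak is unknown, and differences between X and autosomes rest on 2 replicates. Annotation classes depend on the 500 bp limit, and no IDR summits stood closer than 199 bp.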
